A study of Homo sapiens with 2 samples.

Results

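The loci of CDX1 and CDX2 themselves were examined for peaks of the FLAG-tagged Cdx proteins, wt-Cdx1 and wt-Cdx2, to address whether either factor was found at its own gene or at that of its relative. The members were all peaks with their summit in a window of 59001 bp around CDX1 (gene ID 1044; chromosome 5, positions 149526000 to 149585000) or of 48001 bp around CDX2 (gene ID 1045; chromosome 13, positions 28516000 to 28564000). In total, 18 of 415628 peaks were members. Of these, 8 of 196910 were called in the FLAG-wt-Cdx1 library and 10 of 218718 in the FLAG-wt-Cdx2 library. Positions are those of GRCh37, the build named in the submitters' processing notes. The CDX1 gene spans positions 149546344 to 149564121 on the plus strand and the CDX2 gene positions 28536205 to 28543505 on the minus strand. Distances are counted from the transcription start site (TSS), the 5′ end of each span, along the direction of transcription.

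Both libraries were prepared from DLD1-TetOff cells, a human colon cancer line in which doxycycline (DOX) silences the transfected gene. The compared groups were cells expressing FLAG-wt-Cdx1 and cells expressing FLAG-wt-Cdx2, each with 1 library. DOX (0.5 µg/mL) had been removed 20 h earlier, 10 dishes were combined, and after 5 min in 1% formaldehyde the chromatin was cut by micrococcal nuclease (50 min) and recovered on anti-FLAG M2 beads. According to the study, the expressed proteins were the mouse factors, the constructs were carried by transfected TetOff clones, and Cdx1 was induced faster than Cdx2. The labels' descriptions mention cells kept in DOX and lacking the tagged protein, whereas the growth and treatment protocols state that this drug was removed. Both cultures are taken here to express the protein. Since the beads recover the FLAG tag, binding of the endogenous CDX1 and CDX2 proteins was not measured, and neither was the RNA of the genes. The FLAG-wt-Cdx1 and FLAG-wt-Cdx2 libraries had 16452141 and 13781541 tags after duplicates were removed. No library of input DNA or of cells without the tagged protein was analyzed here.

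CDX1 and CDX2 are caudal-related homeobox transcription factors that establish and maintain the identity of the intestinal epithelium, and bind AT-rich DNA through their homeodomains. Regulation of CDX genes by their own products and by their relatives has been described in the intestine and in the embryo, and CDX1 is also a known target of Wnt signaling. CDX2 belongs to the ParaHox genes, with PDX1 as its neighbor. In the RefSeq annotation of GRCh38.p14, the protein-coding genes on either side are PDGFRB and SLC6A7 for CDX1, and PDX1 and URAD for CDX2.

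None of the 18 summits lay within 3 kb of a TSS. Pileup, the number of fragments covering a summit, was 5 to 13 among the members. In the FLAG-wt-Cdx2 library its median was 7.5 at CDX1 and 11.5 at CDX2, against 8 over the whole list. In the FLAG-wt-Cdx1 library it was 8.5 at both loci, against 9. Fold enrichment divides the pileup by the local background, after adding a pseudocount of 1 to each, and its median over both loci was 5.28 at the members against 5.33 over the FLAG-wt-Cdx1 list, and 5.02 against 4.72 over the FLAG-wt-Cdx2 list. A −log10 q of at least 5 was reached by 4 of 8 FLAG-wt-Cdx1 members, against 52.2% of that list, and by 5 of 10 FLAG-wt-Cdx2 members, against 29.0%. A summit of the other library within 100 bp was found for 3 of 8 FLAG-wt-Cdx1 members, against 29.2% of the list, and for 3 of 10 FLAG-wt-Cdx2 members, against 26.3%. Of the members, 8 had the shortest length MACS gives a peak, that of 1 fragment (131 bp for FLAG-wt-Cdx1 and 136 bp for FLAG-wt-Cdx2). This was the case for 3 of 8 against 23.5% of the FLAG-wt-Cdx1 list and for 5 of 10 against 28.0% of the FLAG-wt-Cdx2 list. With 1 library per factor, no difference between the factors was tested. All intervals given below are 95% intervals that cover no variation between libraries. Poisson and exact binomial intervals cover the counting error of fragments or tags. Wilson intervals cover only that of the number of peaks behind a share.

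**Figure D1:**
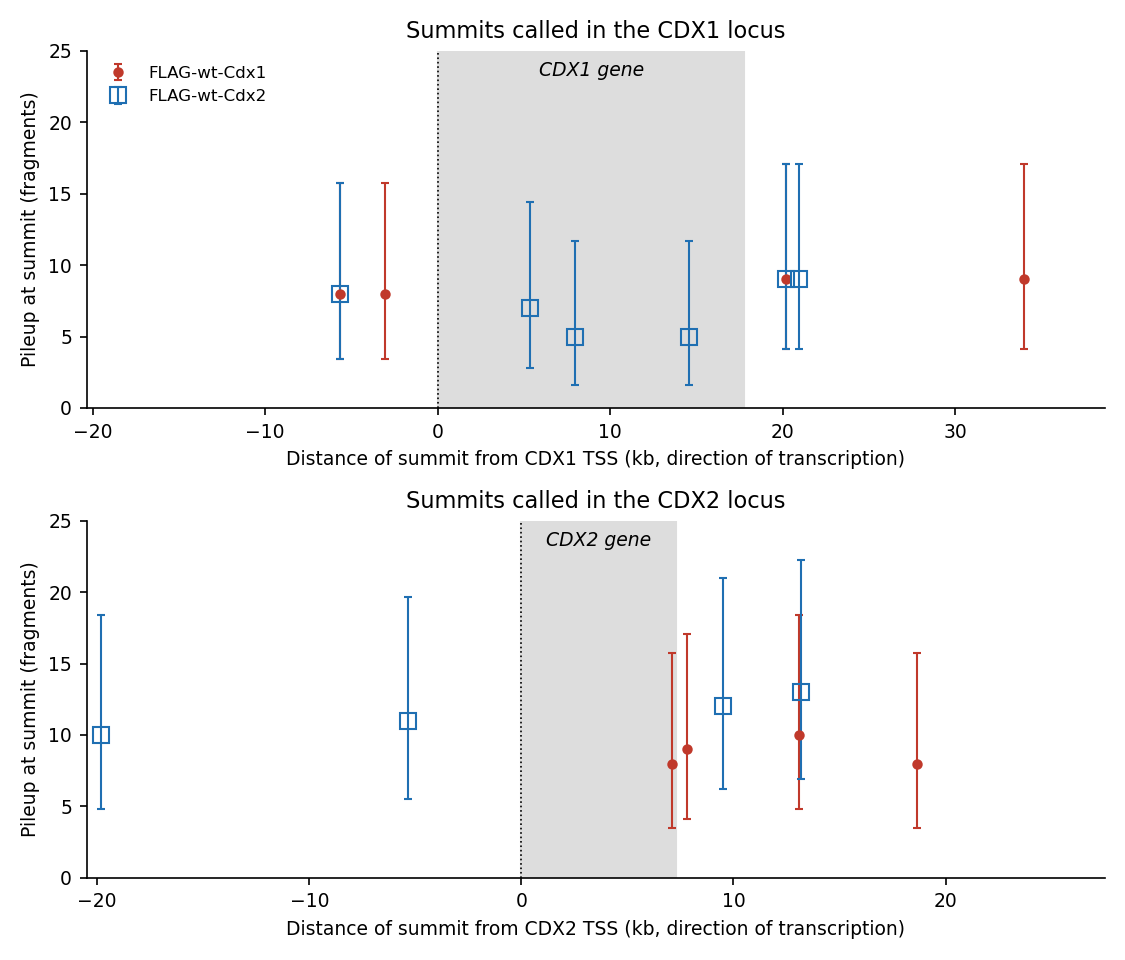
Summits of FLAG-wt-Cdx1 (filled circles) and FLAG-wt-Cdx2 (open squares) by distance from the TSS in kb (x axis) and pileup in fragments (y axis), in the CDX1 window (top) and the CDX2 window (bottom). Bars are exact Poisson intervals, gray marks the gene, and pileups lay between 5 and 13 with overlapping intervals.

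Upstream of CDX1, both factors had a summit at nearly the same place. The FLAG-wt-Cdx1 peak (positions 149540684 to 149540814) had its summit 5643 bp upstream of the TSS, with a pileup of 8 fragments (exact Poisson interval, 3.45 to 15.8), a fold enrichment of 5.00 and a −log10 q of 4.24. In the FLAG-wt-Cdx2 library, the peak (positions 149540639 to 149540774) had its summit 5636 bp upstream, also with 8 fragments, 4.78-fold enriched at a −log10 q of 3.83. The summits were 7 bp apart. A further FLAG-wt-Cdx1 summit, the nearest of all to the CDX1 TSS, lay 3075 bp upstream (positions 149543203 to 149543333), where 8 fragments piled up, 4.83-fold over the background (−log10 q, 4.06). The nearest FLAG-wt-Cdx2 summit was 2561 bp away from it. Thus, the window upstream of CDX1 held 2 summits of FLAG-wt-Cdx1 and 1 of FLAG-wt-Cdx2, and a single FLAG-wt-Cdx1 summit within 5 kb of the TSS. In tiles of 10 kb over the genome, unmappable stretches included, 55.1% held no FLAG-wt-Cdx1 summit and 49.8% no FLAG-wt-Cdx2 summit. Few or no summits around a given position were thus common in both lists.

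Within the CDX1 gene, FLAG-wt-Cdx2 had 3 summits and FLAG-wt-Cdx1 had 0. The FLAG-wt-Cdx2 summits lay 5375, 7977 and 14563 bp downstream of the TSS, with pileups of 7 (interval, 2.81 to 14.4), 5 (1.62 to 11.7) and 5 fragments. Their fold enrichments were 4.72, 3.54 and 3.54, and the −log10 q was 3.61 for the nearest and 2.02 for both others. These were the 3 lowest pileups and −log10 q values of all members. Of the FLAG-wt-Cdx2 list, 1.51% of peaks had a pileup below 5. None of the 3 summits reached a −log10 q of 5. Among tiles of the length of CDX1, 15.0% held at least 3 FLAG-wt-Cdx2 summits, 32.3% held none of this factor, and 37.6% held 0 FLAG-wt-Cdx1 summits.

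Downstream of CDX1, a second site was shared. Its FLAG-wt-Cdx1 peak (positions 149566483 to 149566620) and FLAG-wt-Cdx2 peak (positions 149566447 to 149566582) had summits 20184 and 20166 bp from the TSS, 2407 and 2389 bp past the end of the gene and 18 bp apart. The pileup was 9 fragments in both (interval, 4.12 to 17.1), and the fold enrichment was 5.56 and 5.59. Next to it, 20938 bp from the TSS, FLAG-wt-Cdx2 had another summit with the same pileup of 9 and fold enrichment of 5.59, which lay 754 bp from the nearest FLAG-wt-Cdx1 summit and was not shared. FLAG-wt-Cdx1 had its last summit of the window 33949 bp from the TSS, in a peak of 371 bp (positions 149580167 to 149580537), the longest of the members, 9 fragments high and 5.56-fold enriched. Hence the highest pileup in the CDX1 window was 9 fragments with either factor. Of the FLAG-wt-Cdx1 list, 31.9% of peaks had a lower pileup (Wilson interval, 31.7 to 32.1), and of the FLAG-wt-Cdx2 list 60.2% (60.0 to 60.5). Neither Wilson interval covers the counting error of the 9 fragments themselves (4.12 to 17.1), so the ranks are far less certain.

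At CDX2, the FLAG-wt-Cdx1 summits all lay near the 3′ end of the gene or beyond it. The nearest to the TSS was 7119 bp downstream (positions 28536342 to 28536479), inside the gene and 181 bp from its 3′ end, with a pileup of 8 fragments, a fold enrichment of 5.00 and a −log10 q of 4.24. The next, 7796 bp from the TSS (positions 28535687 to 28535827), was 496 bp past the gene, 9 fragments high and 5.56-fold enriched. A pileup of 10 (interval, 4.80 to 18.4) was found 13070 bp from the TSS and one of 8 at 18639 bp, with fold enrichments of 6.12 and 5.00. The value of 6.12 was the highest fold enrichment of the 18 members, and 70.9% of the FLAG-wt-Cdx1 list had a lower one. Upstream of CDX2, the window held 0 FLAG-wt-Cdx1 summits, and the nearest one on that side lay 25227 bp from the TSS, outside the window.

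FLAG-wt-Cdx2 had summits on both sides of its own gene and 0 inside it. Of tiles of the length of CDX2, 59.5% held 0 FLAG-wt-Cdx2 summits, while 36.0% held at least 1 summit of FLAG-wt-Cdx1, the number found in the gene, and 64.0% held none of it. On the upstream side, FLAG-wt-Cdx2 summits lay 5327 bp from the TSS (positions 28548750 to 28548926; pileup, 11; fold enrichment, 5.60; −log10 q, 5.51) and 19813 bp from it (positions 28563248 to 28563415; pileup, 10; fold enrichment, 5.56; −log10 q, 5.25). On the downstream side, they lay 9527 bp from the TSS (positions 28533931 to 28534066; pileup, 12; fold enrichment, 4.63; −log10 q, 4.51) and 13164 bp from it (positions 28530237 to 28530460; pileup, 13, interval 6.92 to 22.2; fold enrichment, 5.26; −log10 q, 5.59). The last of these is the site shared with FLAG-wt-Cdx1, with summits 94 bp apart and peaks overlapping by 97 bp. Summits up to 100 bp apart counted as shared, so this pair was just inside the limit, and the closest pair outside it was the one 754 bp apart downstream of CDX1. The other shared pairs, both at CDX1, were 7 and 18 bp apart and kept their status with a limit of 50 bp, whereas the CDX2 pair lost it.

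Inside the genes, 0 summits belonged to the library of the own factor and 4 to that of the other factor. None of the 4 reached a −log10 q of 5, and such counts were common among tiles of the genome. Unmappable stretches were not left out of the tiles and add to the shares with 0 summits. Of tiles of the length of CDX1, 37.6% held 0 FLAG-wt-Cdx1 summits and 15.0% at least 3 FLAG-wt-Cdx2 summits. Of tiles of the length of CDX2, 59.5% held 0 FLAG-wt-Cdx2 summits and 36.0% at least 1 FLAG-wt-Cdx1 summit. DNA of an expression construct in a library would add reads over the exons of the gene it encodes. No exon annotation of GRCh37 was used here, so only peaks in the whole genes were counted. No peak of either library overlapped the gene of its own factor, and the peak inside CDX2 and those inside CDX1 had heights of 5 to 8 fragments. The constructs encode the mouse proteins, so reads from them would map to the human genes only where the sequences are nearly identical. The absence of peaks therefore does not decide whether construct DNA was present. Whether fewer reads than needed for a peak came from the constructs was not tested. At a local background equal to the genome-wide value, a peak needed at least 5 fragments in the FLAG-wt-Cdx1 list and 4 in the FLAG-wt-Cdx2 list. At a higher background, more fragments were needed. Where it was like that at the FLAG-wt-Cdx2 peaks downstream of CDX2, the lowest pileups called were 7 and 6 fragments. Signal below the threshold that applied in the genes and at the TSSs was not detectable.

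At the shared sites, the pileups differed by less than the counting error. Scaled to kept tags, the ratio of FLAG-wt-Cdx2 to FLAG-wt-Cdx1 was 1.19 upstream of CDX1 (exact binomial interval, 0.391 to 3.65), 1.19 downstream of CDX1 (0.420 to 3.39) and 1.55 downstream of CDX2 (0.629 to 3.95). These wide intervals neither show equal occupancy nor a difference. In the CDX1 window, 2 of 4 FLAG-wt-Cdx1 summits (50.0%; Wilson interval, 15.0 to 85.0) and 2 of 6 FLAG-wt-Cdx2 summits (33.3%; 9.68 to 70.0) were shared. In the CDX2 window, 1 of 4 was shared in each library (25.0%; 4.56 to 69.9).

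**Figure D2:**
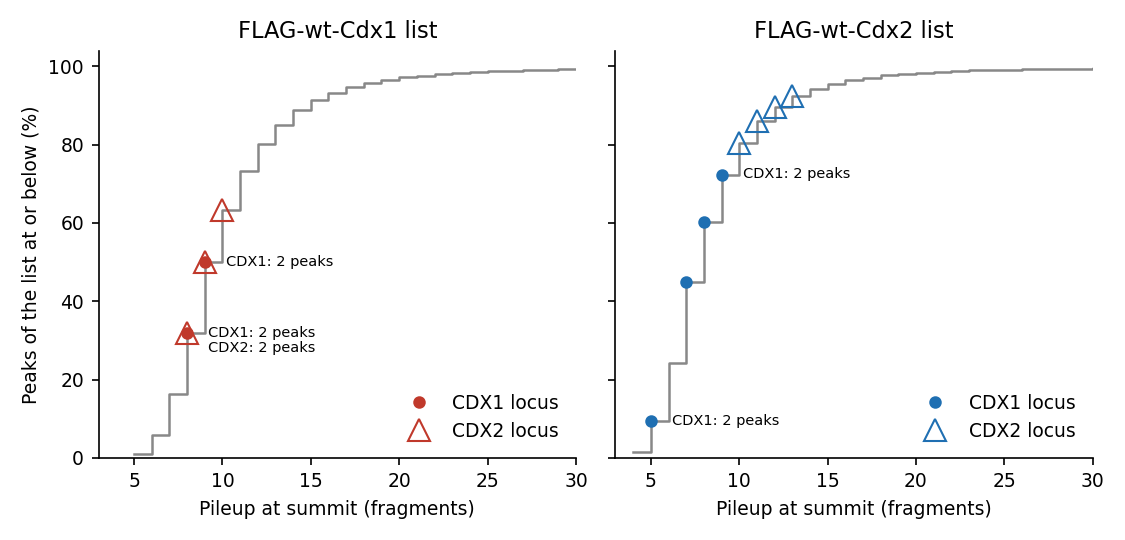
Share of the peaks of each list (y axis, percent) at or below a given pileup in fragments (x axis, up to 30), with the members of the CDX1 locus (filled circles) and the CDX2 locus (open triangles) placed on the curve and equal values counted beside the symbol. FLAG-wt-Cdx2 pileups were 10 to 13 at CDX2 and 5 to 9 at CDX1, while those of FLAG-wt-Cdx1 were 8 to 10 at both.

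By pileup, the FLAG-wt-Cdx2 peaks at CDX2 ranked highest. Lower pileups were found at 72.4, 80.5, 86.1 and 89.8% of the FLAG-wt-Cdx2 list for the peaks of 10, 11, 12 and 13 fragments, whereas the FLAG-wt-Cdx1 peaks at CDX2 stood above 16.3 to 50.1% of their list. By fold enrichment, which divides by the local background, the same FLAG-wt-Cdx2 peaks stood above 73.6, 74.2, 38.4 and 62.7%. The order thus changed, and the peak of 12 fragments stood below the median of the list. The FLAG-wt-Cdx2 pileups at CDX2 and at CDX1 did not overlap as values, but all Poisson intervals did. Their fold enrichments overlapped, at 4.63 to 5.60 for CDX2 and 3.54 to 5.59 for CDX1. How often other windows differ as much in pileup was not tested. Sampling of the lists adds little to these shares, whose Wilson intervals were at most 0.221 percentage points to either side. Those intervals leave out the counting error of the ranked pileup, whose Poisson interval for 13 fragments was 6.92 to 22.2. The ranks are therefore far less certain than the Wilson intervals.

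The local background was above the genome-wide value at all 4 of these FLAG-wt-Cdx2 peaks, though not in the order of their pileups. It was highest at the peak of 12 fragments and lower at that of 13. The 10 kb around each of these summits held both peaks, so their backgrounds are not independent. MACS uses the 10 kb centered on the summit, or the genome-wide value where that is higher, and the result was recovered from the pileup and the fold enrichment. At the FLAG-wt-Cdx2 peaks downstream of CDX2, the 10 kb around the summits held 133 tags (9527 bp from the TSS; Poisson interval, 111 to 158) and 122 tags (13164 bp; 101 to 146), against 51.0 tags at the genome-wide value. The background was therefore 2.61 and 2.39 times the genome-wide value, higher than at 98.2 and 97.4% of the FLAG-wt-Cdx2 peaks, of which 6.11% exceeded 2 times that value. After the summit pileups of the peaks called within these 10 kb were subtracted, the ratios were 2.12 and 1.90. Fragments of these peaks that did not cover a summit stayed in. At the FLAG-wt-Cdx2 peaks upstream of CDX2, the ratio was 1.65 and 1.41, higher than at 86.6 and 74.5% of the FLAG-wt-Cdx2 peaks. All 4 FLAG-wt-Cdx1 peaks of the CDX2 window stood at the genome-wide value of their library, 60.9 tags per 10 kb (6.03% of that list exceeded 2 times this value), so that the surrounding tags were at or below that number. In the CDX1 window, the ratios were 1 to 1.27 in the FLAG-wt-Cdx2 library and 1 to 1.08 in the FLAG-wt-Cdx1 library. Outside that window but within 100 kb of the CDX1 TSS, the FLAG-wt-Cdx2 ratio reached 1.84, so values like those upstream of CDX2 were also found around CDX1.

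The raised FLAG-wt-Cdx2 background was seen at peaks outside the CDX2 gene, and inside the gene it was not measured. The 10 kb around the summit at 13164 bp ended 864 bp short of the CDX2 gene and held none of it, and those around the summit at 9527 bp held 2774 bp of the gene. Beyond the upstream edge of the window, the background was 2.02, 1.74 and 1.59 times the genome-wide value at FLAG-wt-Cdx2 summits 28276, 32327 and 38627 bp from the TSS. On the downstream side it was 1.27 and 1.29 at the next summits outside the window, 32726 and 33635 bp away. Its part in the height of the peaks was not tested. Where the background was like that at 9527 and 13164 bp (within 0.1 fragments), the lowest pileup called was 7 and 6 fragments.

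**Figure D3:**
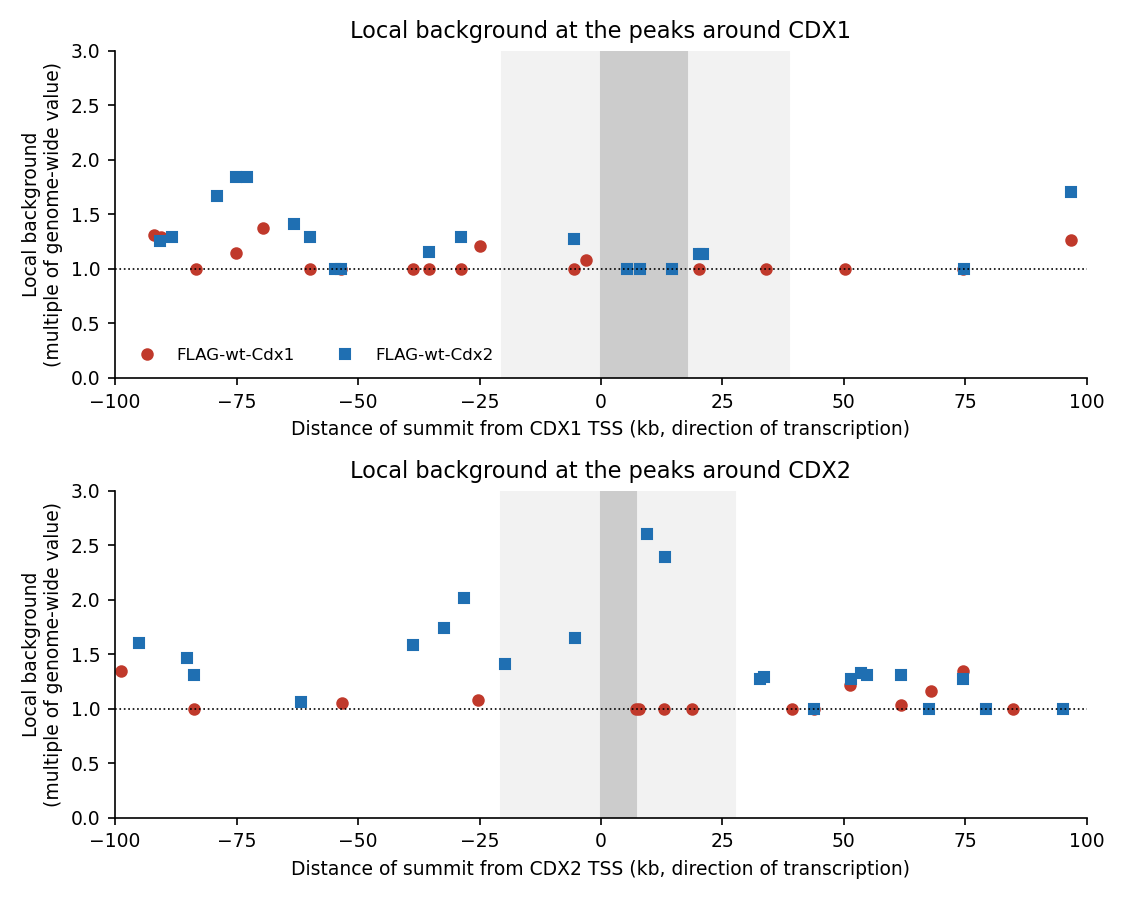
Local background as a multiple of the genome-wide value of the library (y axis) at every peak within 100 kb of the TSS (x axis, kb along transcription), for FLAG-wt-Cdx1 (circles) and FLAG-wt-Cdx2 (squares), around CDX1 (top) and CDX2 (bottom). Dark gray marks the gene, light gray the window and the dotted line the lowest value possible; FLAG-wt-Cdx2 reached 2.61 and 2.39 downstream of CDX2, where FLAG-wt-Cdx1 stood at 1.

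The number of summits in the windows was close to that of the genome at large. With FLAG-wt-Cdx1, the 4 summits of the CDX1 window were more than in 48.2% of 52423 tiles of the same length, which held 3.75 summits on average, and the 4 of the CDX2 window were more than in 60.4% of 64439 tiles (average, 3.05). With FLAG-wt-Cdx2, the 6 summits of the CDX1 window were more than in 68.6% of tiles (average, 4.17) and the 4 of the CDX2 window more than in 52.8% (average, 3.39). When weaker peaks (−log10 q below 5) were left out, the 3 FLAG-wt-Cdx2 summits at CDX2 were more than in 89.8% of tiles. This share was lower for FLAG-wt-Cdx1 at CDX1 (44.8%), FLAG-wt-Cdx2 at CDX1 (65.9%) and FLAG-wt-Cdx1 at CDX2 (53.8%).

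**Figure D4:**
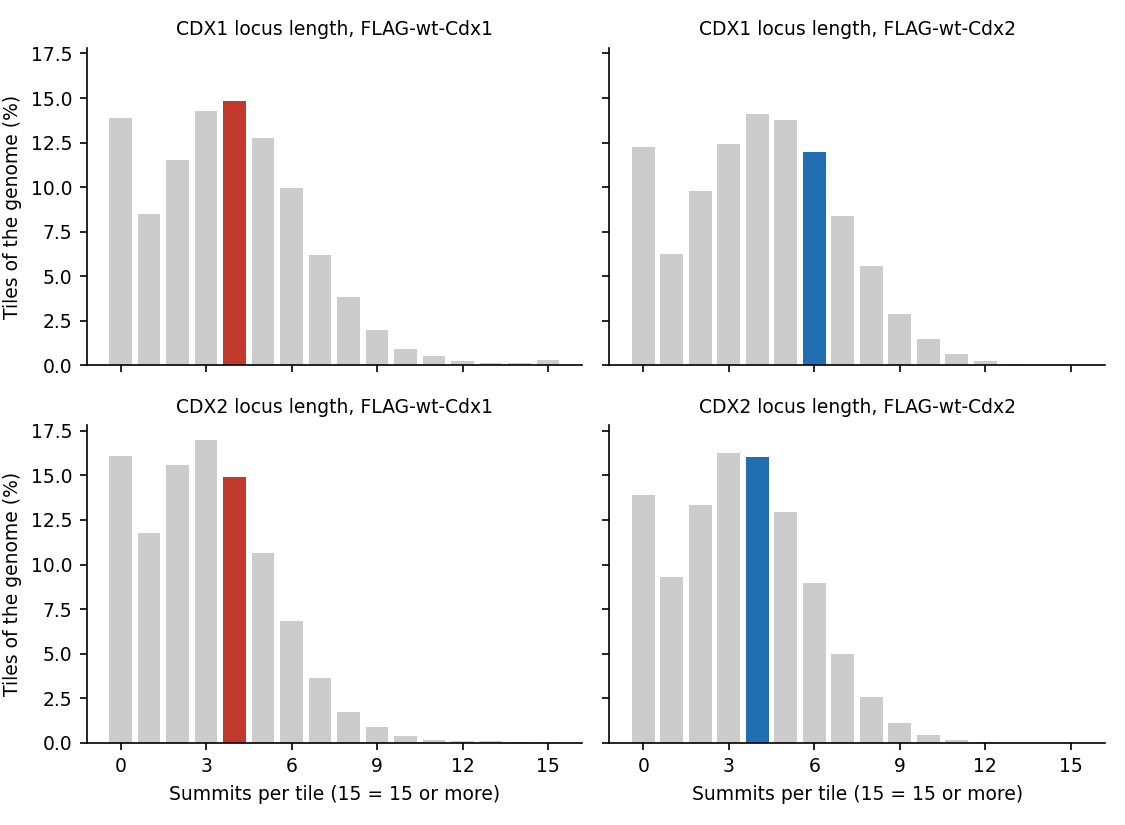
Share of genome tiles (y axis, percent) by the number of summits they hold (x axis), for tiles of the length of the CDX1 window (top) and the CDX2 window (bottom) in the FLAG-wt-Cdx1 list (left) and the FLAG-wt-Cdx2 list (right). The colored bar is the number found in the window itself, 4, 6, 4 and 4, which lies in the body of each distribution.

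The intervals without a summit around the TSSs were longer in the FLAG-wt-Cdx1 list, a difference that was not tested and at CDX1 depended on weaker peaks. Around the CDX1 TSS, FLAG-wt-Cdx1 had no summit over 23259 bp and FLAG-wt-Cdx2 over 11011 bp, which was longer than 82.3 and 59.7% of the intervals between neighboring summits of their lists. Around the CDX2 TSS, FLAG-wt-Cdx1 had none over 32346 bp and FLAG-wt-Cdx2 none over 14854 bp, longer than 90.2 and 71.5% of intervals. An interval that holds a fixed position is more often a long one, and intervals of at least these lengths made up 55.1, 77.6, 41.0 and 66.6% of the distance covered by the lists, in the same order. Intervals as long as these thus covered a large share of both lists. With a −log10 q of at least 5, the intervals around the CDX1 TSS were alike. They reached from 38723 bp upstream to 20184 bp downstream with FLAG-wt-Cdx1 and from 35462 to 20166 bp with FLAG-wt-Cdx2. Around the CDX2 TSS, they reached from 25227 to 7796 bp with FLAG-wt-Cdx1 and from 5327 to 13164 bp with FLAG-wt-Cdx2.

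To show the sequence at the CDX2 start, where summits were missing from both libraries, the 250 bases before the RefSeq start of CDX2 are given (GRCh38.p14, chr13:27969316-27969565, minus strand, read 5′ to 3′). Capitals mark TTTAT on either strand, the core of the sites recognized by CDX homeodomains. The nearest summit on the upstream side was that of FLAG-wt-Cdx2 at 5327 bp.
CDX2 promoter: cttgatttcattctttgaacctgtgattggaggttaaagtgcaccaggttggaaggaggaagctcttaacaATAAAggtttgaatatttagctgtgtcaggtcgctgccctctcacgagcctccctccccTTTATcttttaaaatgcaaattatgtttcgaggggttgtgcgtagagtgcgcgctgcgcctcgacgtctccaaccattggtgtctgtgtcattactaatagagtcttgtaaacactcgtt

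The core TTTAT occurred at 2 places, 120 to 116 bases before the start on the printed strand and 179 to 175 bases before it on the other strand. The latter was part of a match to the longer TTTATNG (181 to 175 bases before the start). CTTTGA, a sequence like that bound by TCF factors, was found once, 238 to 233 bases before the start. On either strand, 32.7% of 35116 RefSeq promoters of the same length held TTTAT, 8.93% held TTTATNG and 11.2% held CTTTGA. These matches describe letters and no binding. The RefSeq model of CDX2 is 8398 bp long and the span used for the distances 7301 bp, and whether both start at the same base was not determined. The summit-free interval common to both libraries reached from 5327 bp upstream to 7119 bp downstream of the CDX2 TSS, and from 3075 bp upstream to 5375 bp downstream of the CDX1 TSS. The promoter of CDX1 is not shown.

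The highest peaks of the wider surroundings, which held more summits, exceeded the highest of the windows. Median pileups did not differ in 1 direction. At CDX2, the median of the FLAG-wt-Cdx2 library was 11.5 inside the window but 9 outside it. There, the FLAG-wt-Cdx1 library had 8.5 inside and 11 outside. At CDX1, the FLAG-wt-Cdx2 library had 7.5 inside and 9 outside, while the other library had 8.5 in both. Within 100 kb of the CDX2 TSS, the highest pileups were 21 fragments for FLAG-wt-Cdx1 (summit 61788 bp downstream) and 23 for FLAG-wt-Cdx2 (61663 bp downstream), which exceeded those of 97.2 and 98.8% of their lists. These summits were 125 bp apart and thus not shared by the limit of 100 bp. At 51349 and 51371 bp downstream, summits 22 bp apart had pileups of 20 for FLAG-wt-Cdx1 and of 11 in the FLAG-wt-Cdx2 library. Near CDX1, the highest were summits 96661 and 96724 bp downstream, 63 bp apart, with a pileup of 17 in both libraries. Outside the windows but within 100 kb of the TSS, 7 of 14 FLAG-wt-Cdx1 and 7 of 13 FLAG-wt-Cdx2 summits were shared around CDX1, and 4 of 11 and 4 of 18 around CDX2. Each pair counts once in each library. Over the whole lists, 29.2% of FLAG-wt-Cdx1 and 26.3% of FLAG-wt-Cdx2 peaks were shared. These surroundings were added after the peaks had been seen, and to which gene such a peak relates was not determined.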

How the data were processed

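The deposited ChIP-seq peak lists of DLD1-TetOff cells were used, 1 for each tagged factor, assigned by title. The submitters' notes name bcl2fastq 1.8.3, cutadapt 1.1, Trimmomatic 0.32, MACS2 2.0.10 and GRCh37; the aligner is ambiguous, since run names in the file headers hold both bowtie and BWA and the input alignment is named for bowtie. Per the file headers, the authors called peaks in each library with MACS 2.0.10.20131216 without a control library (q-value cutoff, 0.05; at most 1 tag per position). Each deposited list gives the pileup signal (fragments, not scaled to depth), −log10 values of the p-value and q-value, a ratio (fold enrichment) and a score, which was checked to be derived from the −log10 q.

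Gene spans and windows were taken as GRCh37 positions. The members and lists were chosen with earlier results of these data known. Summits within 100 bp of one another were called shared. All summits within 5 kb of a TSS or inside a gene, and the highest of each window, were to be named; all 18 are. Tiles covered chromosomes 1 to 22, X and Y up to the last summit, and unmappable stretches were not left out. The promoter search had been planned only for genes with a nearby summit and was extended to CDX2 after the data were seen. Alternatives covered thresholds, ranking, distances, tiles and scaling. Sharing, tiles, background and intervals were tested on simulated data. Python 3.11.15, numpy 2.4.6, pandas 2.3.3 and scipy 1.17.1 were used. Exons and genome sequence of GRCh37 were not used here.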

Additional observations from a re-analysis of the deposited data

How the results depend on the processing

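Values are given in the order FLAG-wt-Cdx1 at CDX1, FLAG-wt-Cdx2 at CDX1, FLAG-wt-Cdx1 at CDX2 and FLAG-wt-Cdx2 at CDX2, and the cause of a change was not tested beyond the construction of the alternative. With a −log10 q of at least 5, the number of summits was 2, 2, 2 and 3, against 4, 6, 4 and 4 with all peaks. The nearest summit to the CDX1 TSS then moved from 3075 bp upstream to 20184 bp downstream with FLAG-wt-Cdx1, and to 20166 bp with FLAG-wt-Cdx2, and that to the CDX2 TSS moved to 7796 bp with FLAG-wt-Cdx1. The summits inside the CDX1 gene (FLAG-wt-Cdx2) and the CDX2 gene (FLAG-wt-Cdx1) both dropped to 0, a count added after seeing the data. A fold enrichment of at least 5 left 2 FLAG-wt-Cdx2 summits at CDX1. The gene with 5 kb on either side held 2 FLAG-wt-Cdx1 summits at CDX1, and 2 FLAG-wt-Cdx1 and 1 FLAG-wt-Cdx2 summits at CDX2. Within 100 kb of the TSS, also added after seeing the data, there were 18, 19, 15 and 22. The top peak by each measure stood above 55.7, 73.8, 70.9 and 74.2% of its list by fold enrichment, where for FLAG-wt-Cdx2 at CDX2 it was the peak of 11 fragments (that of 13 stood above 62.7%), above 50.2, 71.5, 66.5 and 79.3% by −log10 q, and above 32.9, 62.0, 53.6 and 90.8% of peaks of the same chromosome by pileup. The windows held more summits than 44.8, 65.9, 53.8 and 89.8% of tiles with a −log10 q of at least 5, 40.1, 65.3, 68.5 and 58.4% of tiles of the same chromosome, and 42.3, 65.0, 55.6 and 47.0% of tiles with a summit in either list (added after seeing the data). With summits within 50 bp, the shared fraction at CDX2 was 0 in both libraries. With both lists limited to peaks reaching a −log10 q of 5, the shared fractions were 50, 50, 50 and 33.3%, against 50.0, 33.3, 25.0 and 25.0% with all peaks. These fractions rest on the 2, 2, 2 and 3 summits left, so a rise reflects fewer summits and no added pair. The shared pair upstream of CDX1 (−log10 q, 4.24 and 3.83) was lost. The share over the lists limited in this way is not given. No paired analysis was possible because each factor had 1 library, and no replicate could be left out. The background inside a gene could not be given where no peak was called in it. Pileups of 5 to 13 fragments limit every comparison between members, and signal below the calling threshold was not seen.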
